A study of Mus musculus with 11 samples.

Results

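The ErbB receptors and their ligands were followed in the inguinal mammary gland of mice with and without Tsc1 in their fat cells. The 10 genes are a named list: the receptors Egfr, Erbb2, Erbb3 and Erbb4, and the ligands Areg, Btc, Hbegf, Tgfa, Nrg1 and Nrg4. They were taken by symbol from the 22196 genes obtained from the libraries, and all 10 were found. The 6 knockout libraries came from Tsc1-fl/fl; Adipoq-Cre-Tg/+ animals and the 5 wild-type libraries from Tsc1-fl/fl; Adipoq-Cre-+/+ animals, so both groups carry the floxed Tsc1 allele and only the knockout group carries the Cre transgene, which the Adipoq promoter drives in adipocytes. Both groups ate normal chow and their glands were collected 16 days after delivery, with an age label of PND16.5. The labels do not state outright that the animals were lactating, and they give no litter, cage or sequencing batch. The labels number the samples within each genotype but do not say that each came from its own animal, so the p-values measure the spread between these samples, which may be technical in part.

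ErbB receptors are cell-surface tyrosine kinases that signal as pairs, formed from like or unlike members. Egfr binds Areg, Tgfa, Btc and Hbegf, Erbb3 and Erbb4 bind neuregulins, Erbb2 has no known ligand of its own and serves as a partner, and Erbb3 has little kinase activity. In the mammary gland Egfr and Areg are known for the growth of the ducts at puberty, and Erbb4 for the growth of the alveoli and for the Stat5a signalling that goes with milk production. Most ligands are made as membrane proteins and released by metalloproteases, and each carries a small folded module, the EGF-like domain, held together by cysteine pairs.

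The receptor-binding modules are shown first, because this cysteine pattern is what the ligands share beyond their names. The coding sequences are from the GENCODE M21 annotation of GRCm38, read 5′ to 3′ on the coding strand, with the codons of the 6 cysteines in capitals.

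Nrg4 module: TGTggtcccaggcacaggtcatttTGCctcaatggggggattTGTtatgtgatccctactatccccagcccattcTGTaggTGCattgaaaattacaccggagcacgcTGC
Nrg1 module: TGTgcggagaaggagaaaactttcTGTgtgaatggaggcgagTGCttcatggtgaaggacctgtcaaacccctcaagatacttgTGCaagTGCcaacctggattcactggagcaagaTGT
Tgfa module: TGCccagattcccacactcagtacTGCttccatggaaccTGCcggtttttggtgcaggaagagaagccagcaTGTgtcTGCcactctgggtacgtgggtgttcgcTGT
Btc module: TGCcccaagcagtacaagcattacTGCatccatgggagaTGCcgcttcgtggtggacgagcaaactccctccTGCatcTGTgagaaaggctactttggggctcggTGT
Areg module: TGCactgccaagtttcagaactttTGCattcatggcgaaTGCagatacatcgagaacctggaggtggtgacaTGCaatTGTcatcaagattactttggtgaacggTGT

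Each module is split over 2 coding exons. The Nrg4 module lies in exons 4 and 5 (transcript ENSMUST00000130158), at chr9:55280890-55280969 and chr9:55242177-55242207 on the minus strand. The Nrg1 module lies in exons 6 and 7 (ENSMUST00000208205), at chr8:31849310-31849398 and chr8:31838298-31838328 on the minus strand. The Tgfa module lies in exons 3 and 4 (ENSMUST00000032066), at chr6:86263200-86263276 and chr6:86269930-86269960 on the plus strand. The Btc module lies in exons 3 and 4 (ENSMUST00000121044), at chr5:91366121-91366197 and chr5:91362421-91362451 on the minus strand. The Areg module lies in exons 3 and 4 (ENSMUST00000031325), at chr5:91143614-91143690 and chr5:91144334-91144364 on the plus strand. The number of residues between neighbouring cysteines was 7, 4, 10, 1 and 8 in Tgfa, Btc and Areg, 7, 5, 10, 1 and 8 in Nrg4, and 7, 5, 13, 1 and 8 in Nrg1. The pair of neuregulins shown had 1 residue more in the second of these gaps than the Egfr ligands shown. A search for this spacing, with 3 to 5 residues allowed in its second gap and 10 to 13 in the gap after it, found it in all 6 listed ligands and in 59 of 21969 genes with a coding sequence, 0.269%. The bounds hold the spacings of the ligands shown, so finding it in those was fixed beforehand and is no test.

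The libraries held between 25817975 and 37894237 estimated reads. Genes that the tissue should express were present: the casein and other milk protein genes took 50.7% to 59.3% of the counts in the knockout and 56.7% to 63.0% in the wild-type libraries, the luminal keratin Krt8 was at 128 to 304 CPM (counts relative to library size, scaled with edgeR's TMM factors) and the fat cell gene Adipoq at 29.5 to 58.2 CPM. The targeted gene, Tsc1, ranged over 8.30 to 11.9 CPM with the knockout label and 9.54 to 12.1 CPM with the wild-type label, and its log2 fold change of -0.09 ± 0.11 (SE) had an adjusted p of 0.772 in edgeR's quasi-likelihood test; in whole gland the other cells keep Tsc1, so this value checks the labels weakly. Summed over 10 adipocyte markers, the knockout libraries held 1188 to 1744 CPM and the wild-type libraries 719 to 1051 CPM, with no overlap. Much of that sum was Cfd, with means of 905 and 527 CPM, whose own ranges overlapped. Lep was lower in the knockout (means of 0.649 and 1.17 CPM). Among single genes, CPM ranges lay apart for 1.32% of those tested. Knockout 1 held 2039 CPM of 6 skeletal muscle genes, against at most 172 CPM in any wild-type library. Across all 12716 genes with enough counts, edgeR's quasi-likelihood test called 7 genes at an adjusted p under 0.05, 0.055% of those tested (0.0472% higher and 0.00786% lower in the knockout); DESeq2 called 146, and leaving out 1 library at a time gave between 0 (without Knockout 3 or Knockout 6) and 28 (without Knockout 2).

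None of the 5 listed genes that passed the low-count filter (Egfr, Erbb2, Erbb3, Hbegf and Nrg4) reached an adjusted p under 0.05 in edgeR, against a background of 0.055%. Egfr was the only one of the 5 with an unadjusted p under 0.05, against 12.4% of all genes tested (6.31% higher in the knockout), and DESeq2 called none of the 7 it tested. The other 5 genes (Erbb4, Nrg1, Tgfa, Areg and Btc) had too few counts for the filter and are given by their counts. The plot of CPM by library shows all 10 genes.

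**Figure D1:**
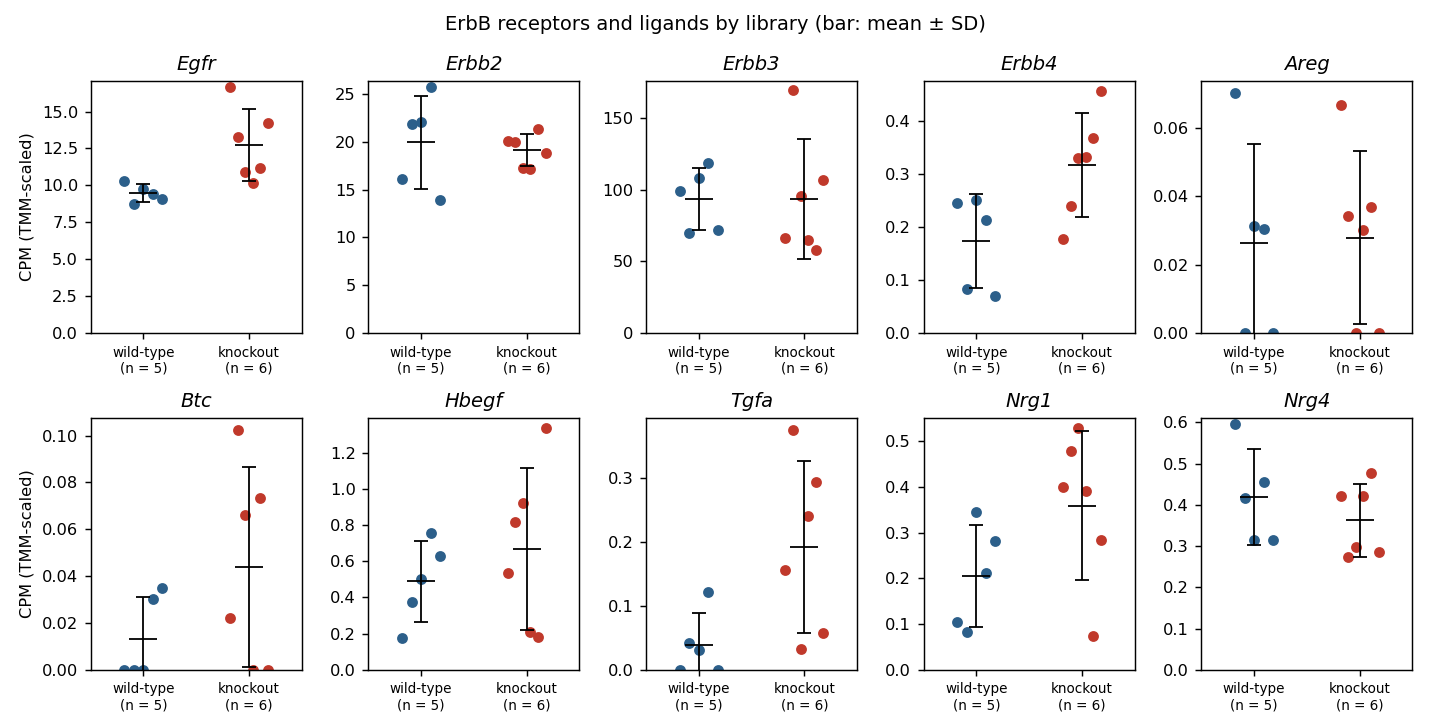
CPM (TMM-scaled, vertical axes, each starting at 0) of the 10 genes in the 6 knockout and 5 wild-type libraries; each point is a library and the bars are the mean ± SD, drawn no lower than 0. In the Egfr panel 5 of the 6 knockout libraries lie above every wild-type library, while the Erbb2 and Erbb3 panels overlap widely.

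Egfr, the receptor of the EGF-type ligands, is at chr11:16752203-16918158 on the plus strand. It stood at 10.2 CPM in the lowest knockout library, 12.2 CPM at the median and 16.7 CPM in the highest. The wild-type libraries were at 10.3, 8.73, 9.73, 9.41 and 9.09 CPM. Thus 5 of 6 knockout libraries were above every wild-type library, and Knockout 4, at 10.2 CPM, lay just under Wild-Type 1, at 10.3 CPM, so the groups overlapped by that pair alone. The means were 12.7 ± 2.46 CPM (SD, n = 6) and 9.46 ± 0.614 CPM (SD, n = 5), and the knockout libraries were the more spread, with a coefficient of variation of 19.3% against 6.49%. The log2 fold change was 0.43 ± 0.12 SE, a ratio of 1.35 with an interval of 1.13 to 1.60 (2 standard errors either side); its unadjusted p was 0.00431 and its edgeR adjusted p 0.269, so the difference did not hold over all genes tested. Over the 19 alternatives the log2 fold change stayed above 0, with adjusted p between 0.0879 (DESeq2) and 0.575. Without Knockout 1, the highest library, it was 0.34.

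Of the 19 alternatives, 2 moved the Egfr difference by over 1.5 times. With an offset for the average length of the transcripts counted it was 0.28 (edgeR adjusted p = 0.474). On the log2(value + 1) scale of the authors' normalized gene table, whose unit is not stated and whose fit differs in scaling and method as well, it was 0.27 (limma adjusted p = 0.503). Marker genes of several cell types stood beside it: 9 of 10 adipocyte markers, 7 of 8 luminal markers, 8 of 8 myoepithelial markers and 6 of 7 fibroblast markers had a fold change above 0, against 48.3% of all genes, and none of them passed the adjusted threshold in edgeR. The fibroblast markers summed to 276 to 660 CPM in the knockout and 211 to 465 CPM in the wild-type libraries, and the luminal markers to 653 to 1034 CPM and 521 to 954 CPM. None of these markers was at 0 in any library. Of the tested markers of other cells, 6 of 6 of skeletal muscle, 5 of 6 of endothelium and 4 of 5 of hormone-sensing luminal cells were above 0, as were 2 of 7 of macrophages, 0 of 4 of B cells, 0 of 4 of T cells, 1 of 4 of Schwann cells and 0 of 8 milk protein genes, and none of them passed the threshold either. The B cell markers differed most in size, with a median log2 fold change of -2.77, an unadjusted p under 0.05 for all 4, and sums of 0.807 to 12.8 CPM in the knockout against 1.86 to 63.7 CPM in the wild-type group. The skeletal muscle genes were highest in Knockout 1, which was also the highest library in Egfr. Their summed medians lay close, at 22.2 CPM in the knockout and 19.7 CPM in the wild-type group. The part of these cells in the Egfr value was not tested. In RNA from whole tissue, fewer cells of a type and less RNA per cell cannot be told apart, which holds for every gene below.

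Egfr was the listed gene whose counts fell on more than 1 transcript in numbers large enough to divide. The full-length transcript (ENSMUST00000020329) encodes the whole receptor, with 3633 coding bases. The short transcript (ENSMUST00000102884) has 1968 coding bases: the first 1926 are those of the full-length transcript, and its last 42, from exon 16, are its own. It ends before the membrane-spanning and kinase parts of the receptor, so that its product is a receptor ectodomain alone. That tail is shown because it tells the short form from the full one; only reads that touch it, or the 1707 bases that the full-length transcript has alone, can assign a count to either form directly.

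Egfr short form tail: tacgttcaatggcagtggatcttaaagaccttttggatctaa

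The tail lies at chr11:16887187-16887228 on the plus strand and has no capitals, since the whole of it is absent from the full-length coding sequence. The full-length transcript took 70.8% and the short one 29.1% of all Egfr counts. The full-length share was 58.7% in the lowest knockout library, 73.4% at the median and 79.7% in the highest, and 66.6%, 55%, 60.3%, 78.5% and 63.3% in the wild-type libraries. The groups overlapped: Wild-Type 4 was above 4 knockout libraries, and Knockout 5 was below 4 wild-type libraries. The mean shares, 72.2% ± 8.0 (SD, n = 6) and 64.7% ± 8.8 (SD, n = 5), differed by 7.43 percentage points (exact two-sided permutation test over 462 splits, p = 0.171, adjusted p = 0.177 over the shares of both transcripts, which nearly mirror each other). Without Knockout 5 the difference was 10.1 points (exact permutation p = 0.0476, not adjusted over the shares of both transcripts), and over all libraries left out in turn it ran from 4.98 to 10.9 points.

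In CPM the ranges of both transcripts overlapped between the genotypes. The full-length transcript was at 6.55 CPM in the lowest knockout library, 8.88 CPM at the median and 13.3 CPM in the highest, and at 6.88, 4.79, 5.87, 7.39 and 5.75 CPM in the wild-type libraries. Again 5 of 6 knockout libraries were above every wild-type library, this time with Knockout 5 the lowest. The means were 9.27 ± 2.48 CPM (SD, n = 6) and 6.14 ± 1.02 CPM (SD, n = 5) (exact two-sided permutation test, p = 0.0260, adjusted p = 0.0519 over both transcripts; p = 0.0317 without Knockout 1). The short transcript was at 2.38 to 4.61 CPM in the knockout libraries and at 3.45, 3.79, 3.86, 2.03 and 3.34 CPM in the wild-type libraries, with means of 3.46 and 3.29 CPM (exact permutation p = 0.732). This comparison of the transcripts' CPM was added after the gene's values had been seen. The test of whether the transcripts changed unequally is that of the shares, which did not pass its threshold with all libraries.

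**Figure D2:**
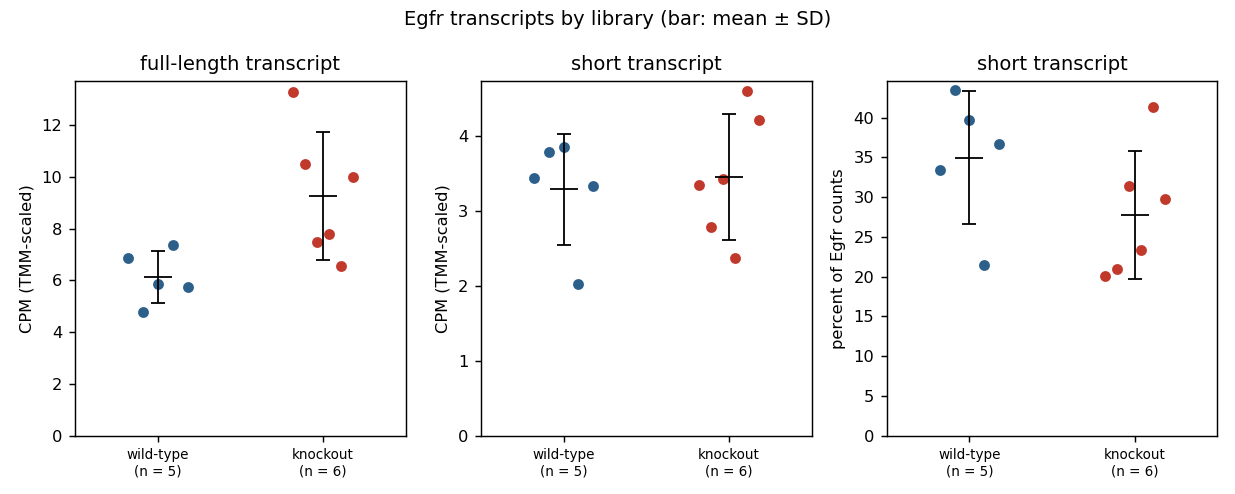
CPM of the full-length and the short Egfr transcript, and the short transcript's percent of the gene's counts, in the 6 knockout and 5 wild-type libraries; points are libraries, bars the mean ± SD. Knockout libraries span 6.55 to 13.3 CPM of the full-length transcript and wild-type libraries 4.79 to 7.39 CPM, and the ranges of both transcripts overlap between the genotypes.

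Erbb2, the partner receptor without a ligand, is at chr11:98412470-98437716 on the plus strand. It was at 17.2 CPM in the lowest knockout library, 19.4 CPM at the median and 21.3 CPM in the highest. The wild-type libraries were at 16.1, 21.9, 22.0, 25.7 and 13.9 CPM, so that the wild-type range held the whole knockout range. The means were 19.1 ± 1.68 CPM (SD, n = 6) and 19.9 ± 4.84 CPM (SD, n = 5). In edgeR, Erbb2 had a log2 fold change of -0.06 ± 0.14 (SE), adjusted p = 0.888, and the interval of the ratio ran from 0.787 to 1.17. Without Wild-Type 4, the highest library, the log2 fold change was 0.05. Mien1 overlaps Erbb2 on the other strand and was quantified too; whether the counting used the strand is not given in the sources used here.

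Erbb3, which pairs with Erbb2 to signal from neuregulins, is at chr10:128567523-128589652 on the minus strand. Its coefficient of variation in CPM was 45% in the knockout group, against 19.3% for Egfr and 8.78% for Erbb2, and 23.3% in the wild-type group, where Erbb2 was at 24.3%. It was at 58.1 CPM in the lowest knockout library, 81.0 CPM at the median and 170.1 CPM in the highest. The wild-type libraries were at 99.5, 70.0, 108, 119 and 72.1 CPM. Knockout 2 alone was above the wild-type range, and 3 knockout libraries (Knockout 1, 4 and 5) were below it. The means were nearly equal, 93.7 ± 42.1 CPM (SD, n = 6) and 93.7 ± 21.8 CPM (SD, n = 5), and edgeR put the difference at -0.00 ± 0.28 (SE) on the log2 scale, with an adjusted p of 0.998. The interval of the ratio, 0.680 to 1.47, was wider than that of Egfr or Erbb2 although Erbb3 had the most counts of the listed genes, 1584 to 4991 a library. The sign of its fold change was not stable: it turned positive with 3 other ways of scaling or testing and with 6 of the 11 libraries left out.

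Erbb4, the neuregulin receptor tied to alveolar growth, is at chr1:68032186-69108059 on the minus strand and was close to the limit of detection. Its counts were 8, 7, 10, 11, 10 and 16 in the knockout and 7, 2, 8, 7 and 2 in the wild-type libraries, 62 and 26 reads in all. Of the knockout libraries 4 had 10 or more counts, and no wild-type library did. In CPM the knockout libraries were at 0.178 to 0.455 and the wild-type libraries at 0.0702 to 0.251, so the groups overlapped, while the TPM values, 0.0243 to 0.0484 and 0.00678 to 0.0236, did not. TPM is not TMM-scaled and ran higher in the knockout for the other receptors too. The ratio of knockout to wild-type means was 1.18 in TPM against 0.999 in CPM for Erbb3. It was 1.13 against 0.958 for Erbb2 and 1.47 against 1.35 for Egfr. TPM ranges lay apart, with the knockout higher, for 1.35% of the 17487 genes with any TPM, and CPM ranges lay apart in either direction for 1.32% of the genes tested. Fitted without the low-count filter, the log2 difference was 0.83, with an edgeR adjusted p of 0.495.

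Erbb4 is spliced with or without a short exon whose product holds a docking site for phosphatidylinositol 3-kinase, the forms known as CYT-1 and CYT-2. That cassette is shown because it is the only coding difference between the 2 transcripts that took nearly all Erbb4 counts (ENSMUST00000119142 with it and ENSMUST00000121473 without). It has 48 bases and is exon 26, at chr1:68043908-68043955 on the minus strand.

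Erbb4 insert: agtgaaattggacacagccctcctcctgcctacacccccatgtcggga

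The form without the insert took 62.0 estimated reads over 9 libraries. The form with it took 23.0 estimated reads, all of them in Wild-Type 1 (7 reads) and Knockout 6 (16 reads). These were all the Erbb4 reads of those libraries. Only reads that touch the insert, or the junction that skips it, can tell these forms apart. The values are thus estimates and not counts of reads seen on the insert. Another listed form took 3.04 reads, all in Knockout 3. With so few reads in a library, no share was compared.

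Per length, the receptors formed a steep order. TPM divides by the listed length, which for the receptors was the coding length, so genes are set side by side per coding base. In TPM, Erbb3 averaged 8.66 over the 11 libraries, Erbb2 1.89, Egfr 1.60 and Erbb4 0.0264. Erbb3 was above Erbb2 in 11 of 11 libraries and Egfr above Erbb4 in 11 of 11. Erbb2 was above Egfr in 9 of 11, all 5 wild-type and 4 of 6 knockout libraries, and the ratio of Erbb2 to Egfr within a library averaged 1.23 ± 0.329 (SD, n = 11), so that these neighbours lay close and their order was not the same in every library. Among genes with any TPM, Erbb3 stood at percentile 81.4, Erbb2 at 55.6, Egfr at 52.9 and Erbb4 at 14.9. Erbb3 made up 68.5% ± 8.72 of the summed TPM of the 4 receptors in the knockout libraries (SD, n = 6) and 71.5% ± 5.11 in the wild-type libraries (SD, n = 5). The corresponding levels were 16.2% and 16.1% for Erbb2, 14.9% and 12.2% for Egfr, and 0.297% and 0.140% for Erbb4. Between genotypes these shares overlapped for every receptor.

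The listed ligands had far fewer counts than Egfr, Erbb2 or Erbb3, and most sat near the limit of detection. Counts of 3 reads correspond to 0.0666 to 0.125 CPM, depending on the library. Nrg4, a neuregulin made by fat cells that binds Erbb4, is at chr9:55220222-55326844 on the minus strand. Its counts were 19, 8, 9, 14, 13 and 10 in the knockout and 17, 10, 10, 15 and 9 in the wild-type libraries, all of them on the transcript whose module is shown above. By edgeR the genotypes differed by -0.21 ± 0.27 (SE) on the log2 scale, with an adjusted p of 0.791 and a ratio interval of 0.596 to 1.26, and the groups overlapped, with 0.273 to 0.477 CPM in the knockout and 0.314 to 0.595 CPM in the wild-type group. Without Wild-Type 1 the log2 difference was -0.05. Fbxo22 overlaps Nrg4 on the other strand and was quantified as well.

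Hbegf, a membrane-bound ligand of Egfr and Erbb4, had 24, 24, 28, 7, 5 and 47 counts in the knockout and 5, 9, 16, 25 and 18 in the wild-type libraries. It was more uneven than Nrg4: the knockout libraries ran from 0.184 to 1.34 CPM, and 2 of them (Knockout 4 and Knockout 5) were lower than 4 of the 5 wild-type libraries. The edgeR estimate, 0.44 ± 0.51 (SE) on the log2 scale with an adjusted p of 0.756, was about as large as that of Egfr but had a standard error above its own size, so the ratio interval ran from 0.673 to 2.74. The estimate fell to 0.06 with the replicate number as a block and to 0.12 without Knockout 6, and rose to 0.66 without Wild-Type 4.

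Nrg1, the neuregulin that binds Erbb3 and Erbb4, is at chr8:31814551-32884029 on the minus strand. It had 18, 14, 16, 13, 2 and 10 counts in the knockout and 3, 2, 11, 7 and 8 in the wild-type libraries, and 80.1% of its reads were assigned to the transcript shown above. Knockout 5, with 2 counts, was as low as any wild-type library, and the other knockout libraries had 10 or more. Fitted without the filter, the log2 difference was 0.78, with an edgeR adjusted p of 0.562.

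Tgfa, an Egfr ligand, is at chr6:86195223-86275719 on the plus strand. It had 7, 11, 1, 8, 8 and 2 counts in the knockout and 0, 1, 1, 4 and 0 in the wild-type libraries, 37 and 6 reads in all. Of the 6 knockout libraries 4 had more reads than any wild-type library, and Knockout 3 and Knockout 6 fell within the wild-type range. Fitted without the filter, the log2 difference was 2.13, with an edgeR adjusted p of 0.402.

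Areg, the Egfr ligand of the growing duct, is at chr5:91139599-91148432 on the plus strand and had 10 reads in all 11 libraries together, at most 3 in any. Btc, at chr5:91357261-91402994 on the minus strand, also had 10 reads in all, 8 in the knockout and 2 in the wild-type libraries. Areg was at 0 counts in 4 libraries and Btc in 5. Pgr, the progesterone receptor of the hormone-sensing luminal cells that are the known source of Areg, was at 0 to 0.375 CPM and under the same filter, while Esr1 was at 4.93 to 10.9 CPM. With so few reads neither Areg nor Btc was measured well enough to compare the genotypes.

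In TPM the listed ligands ran in the order Nrg4 (1.60), Hbegf (0.667), Tgfa (0.251), Nrg1 (0.0710), Btc (0.0501) and Areg (0.0263). Nrg4 was above Hbegf in 10 of 11 libraries and Hbegf above Tgfa in 9 of 11. The neighbours further down kept their order in 7 (Tgfa above Nrg1), 8 (Nrg1 above Btc) and 5 (Btc above Areg) of 11 libraries and could not be told apart. The place of Nrg4 owed much to its short coding length of 348 bases: it had 134 reads in all against 208 for Hbegf.

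The family's other ligands were set beside these. Egf, the founding Egfr ligand and a component of milk, averaged 18 TPM, above Nrg4 in 11 of 11 libraries and at percentile 89.7 of genes with any TPM. It was at 89.1 to 164 CPM in the knockout libraries, with a median of 136, and at 180, 137, 208, 141 and 155 CPM in the wild-type libraries. The means were 130 and 164 CPM, a difference of -0.34 ± 0.17 (SE) on the log2 scale that did not pass in edgeR (adjusted p = 0.452). Knockout 1 and Knockout 2, the lowest in Egf, were also the libraries with the lowest share of milk protein counts, 50.7% and 54.3%; the part of that share in the Egf value was not tested. The TPM of Egf was 5.93 ± 1.71 times the summed TPM of the 6 listed ligands in the knockout libraries (SD, n = 6) and 8.98 ± 2.59 times in the wild-type libraries (SD, n = 5), with overlapping ranges. Nrg2 was low and uneven (0 to 27 counts, -0.77 ± 0.80 SE on the log2 scale, adjusted p = 0.730 in edgeR) and its direction turned among the alternatives, which ran from -1.13 to 0.45, Epgn had 7 reads in all, and Ereg and Nrg3 were at 0 counts in all 11 libraries, which allows up to 3 counts in each.

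Across the 11 libraries the receptors did not rise and fall together in a way that could be shown. Over the 6 pairs Pearson's r on log2 CPM ran from 0.03 to 0.41, with permutation p-values of at least 0.853 after adjustment. Without the 2 libraries farthest from the median of the first gene of each pair, r ran from -0.40 (Erbb2 with Erbb4) to 0.62 (Egfr with Erbb4), so the values changed with the libraries kept. The highest, Egfr with Erbb4, had r = 0.41 (permutation p = 0.198, adjusted p = 0.853) and Spearman's rho = 0.48 (permutation p = 0.136, adjusted p = 0.818). With each genotype centred on its own mean it was -0.09, so the pooled relation did not hold within genotypes.

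The genes most like each tested receptor are given as a description: they were picked for the highest r among all 12716 genes tested, so a high r and shared high and low libraries follow from the choice. Ranked over all genes tested by r of log2 CPM centred within genotype (n = 11 libraries, which share their depth and scaling, so that no p is given), Erbb3 was closest to Ccng2 (0.99), a cyclin found in resting cells, to Mtus1 (0.98), a microtubule-associated protein, and to Ptpn23 (0.97), an endosomal protein. All 4 genes were highest in Knockout 2 and lowest in Knockout 5, and within the wild-type group they were high in Wild-Type 3 and Wild-Type 4. Erbb2 was closest to Gas2l1 (0.95), Jam2 (0.92) and Pak4 (0.92), each lowest in Wild-Type 5. Egfr was closest to Ptgfrn (0.93), Nono (0.92) and Prkab2 (0.90), each highest in Knockout 1. None of these 9 genes passed the edgeR threshold between genotypes, with adjusted p between 0.396 and 0.954.

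**Figure D3:**
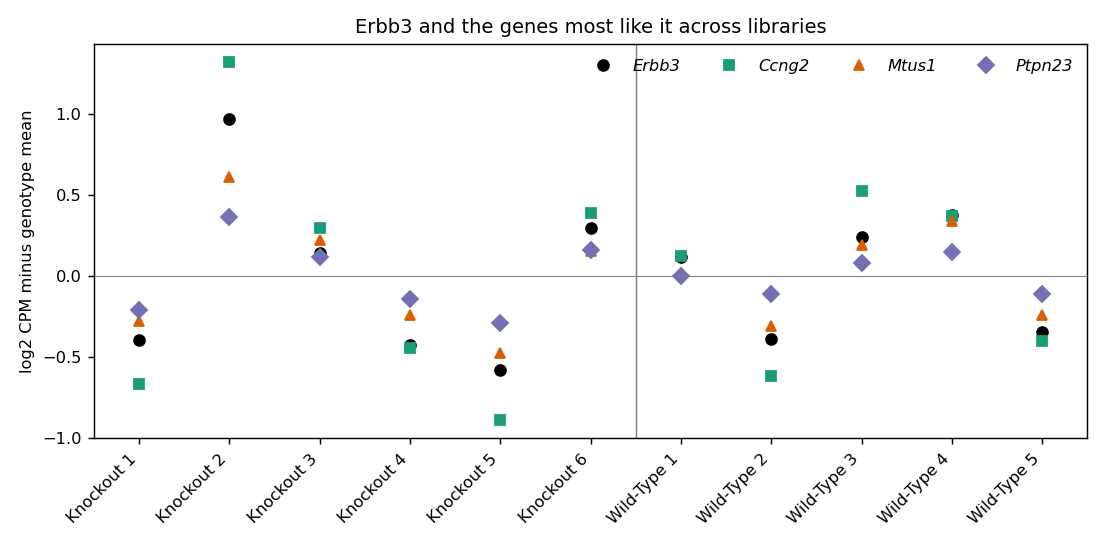
Log2 CPM minus the mean of the genotype (vertical axis) of Erbb3, Ccng2, Mtus1 and Ptpn23 in each library (horizontal axis), with a line separating the genotypes. The 4 genes share their highest library, Knockout 2, and their lowest, Knockout 5, where Erbb3 lies 0.97 above and 0.58 below its genotype mean.

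The genes around the receptors were taken from 6 lists: the other ligands, the proteases that shed ligands, the adaptors and kinases inside the cell, the genes of feedback and receptor turnover, the partners of the receptors, and early target genes. Of 79 genes 74 were tested and none passed the edgeR threshold, against 0.055% of all genes; 9 had an unadjusted p under 0.05 (7 higher, 2 lower in the knockout), 9 of 74 against 12.4% of all genes. The fold change was above 0 for 48 of the 74, against 48.3% of all genes tested, and the median was 0.05 against -0.01. No set test was run on the lists.

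Among the 9 shedding genes, 7 had a fold change above 0 and the list's median was 0.09. Adam10, a metalloprotease that sheds ErbB ligands, ranged over 31.6 to 39.6 CPM with the knockout and 27.0 to 33.1 CPM without it, a log2 difference of 0.24 ± 0.08 (SE) with an edgeR adjusted p of 0.282. Adam12 and Adam15 followed with log2 fold changes of 0.43 and 0.12 and edgeR adjusted p of 0.529 and 0.619. Of the 25 adaptors and kinases 17 were above 0, with a median of 0.05. Pik3r1, a regulatory subunit of phosphatidylinositol 3-kinase, was at 93.6 to 128 CPM against 65.9 to 101 CPM (0.33 ± 0.11 SE, edgeR adjusted p = 0.310). The phosphatase Ptpn11 and the adaptor Shc1 were at 0.21 and 0.17 (edgeR adjusted p = 0.457 and 0.502).

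The feedback and turnover list held 5 of the 9 genes with an unadjusted p under 0.05, on both sides of 0, and 12 of its 21 genes were above 0. Lrig1, a membrane protein that promotes the degradation of ErbB receptors, ranged over 39.3 to 58.5 CPM with the knockout and 48.7 to 80.7 CPM without it, a log2 difference of -0.42 ± 0.13 (SE) with an edgeR adjusted p of 0.286. Socs5 and Cbl, which also direct Egfr to degradation, differed by 0.36 ± 0.13 and 0.56 ± 0.24 (SE) on the log2 scale (edgeR adjusted p = 0.340 and 0.371). Among the 8 partners, Stat5a, the transcription factor of milk gene expression, was at 98.4 to 178 CPM against 69.9 to 127 CPM (0.43 ± 0.19 SE, edgeR adjusted p = 0.379), Erbin at 0.32 and the chaperone partner Cdc37 at -0.09 (edgeR adjusted p = 0.483 and 0.579). Of the 11 early targets 9 were tested, Fosl1 and Etv4 being too low, and 7 were above 0. Phlda1 was at 3.05 to 23.3 CPM against 2.98 to 7.26 CPM (1.13 ± 0.51 SE, edgeR adjusted p = 0.403), and Ier3 and Ccnd1 were at 0.36 and 0.25 (edgeR adjusted p = 0.732 and 0.752).

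**Figure D4:**
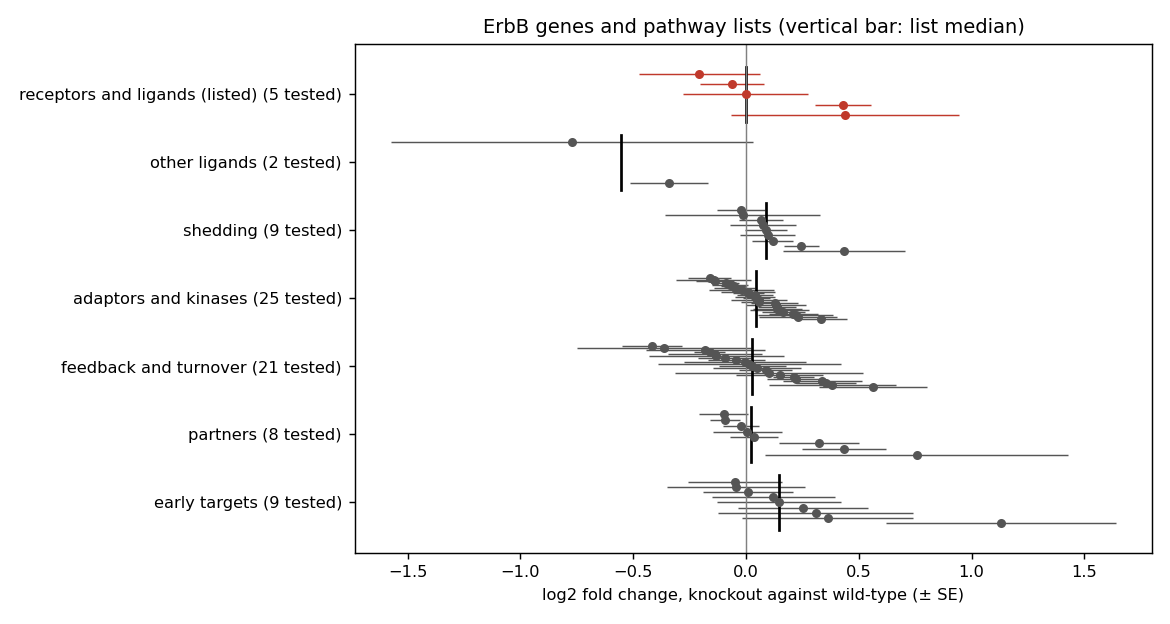
Log2 fold change, knockout against wild-type (horizontal axis, points with ± SE), of the 5 tested ErbB genes and of the tested genes of each pathway list; vertical bars mark list medians. Egfr is at 0.43 ± 0.12 and Erbb3 at -0.00 ± 0.28, and no gene shown passed the edgeR threshold.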

How the data were processed

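RNA of 11 inguinal mammary gland samples was sequenced from strand-specific libraries. Per the submitters' processing notes, the authors used Salmon 1.3.0, DESeq2 1.28.1 and the build GRCm38.p6. Each library's deposited table gave, per the file headers, an estimated count, a TPM (abundance per length) and the lengths of 58204 transcripts. Of these, 57452 matched GENCODE M21. For nearly all transcripts of the listed genes, some of Nrg1 apart, the listed length was the coding length (348 bases for Nrg4). Reads from their untranslated regions were therefore not counted. The authors' deposited table of normalized gene values, whose unit is taken here as a scaled signal, served as an alternative only.

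Estimated counts were summed per gene, rounded, filtered with filterByExpr, scaled by TMM and tested with edgeR 4.0.16 (quasi-likelihood, robust, both genotypes, no covariate), with Benjamini-Hochberg adjustment over 12716 genes and a threshold of 0.05. Precision for low genes did not follow the counts alone: the log2 SE was 0.51 for Hbegf, with 208 reads in all, and 0.27 for Nrg4, with 134. Alternatives used DESeq2 1.42.0, limma 3.58.1, other scaling, no filter, a length offset, a replicate block and each library left out. Shares were compared by exact permutation, correlations by 100000 resamples. The edgeR step was tested on simulated data. The members, the lists and the rules were chosen with earlier results of these data known. In each list the 3 tested genes of smallest p were named, and for each receptor the 3 genes most like it.

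Each 31-base stretch of a listed gene's coding sequence was found in no other gene. Replicates differed by more than sampling noise, with a chi-square per degree of freedom of 21.9 to 93.6. Removed low genes held at most 0.0698% of the reads.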

Additional observations from a re-analysis of the deposited data

How the results depend on the processing

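The count of ErbB genes past the edgeR threshold, and that of the pathway genes, stayed at 0 in all 19 alternatives, and Egfr, Hbegf and Nrg4 kept their signs. Hbegf moved in size, from 0.44 to 0.26 in limma voom and in the authors' table, 0.06 with the replicate block and 0.12 to 0.66 with 1 library left out (0.12 without Knockout 6, 0.23 without Wild-Type 1, 0.66 without Wild-Type 4); Nrg4 ran from -0.30 to -0.05 (without Wild-Type 1). The count over all genes, 7, became 146 with DESeq2 and ran from 0 to 28 with 1 library left out: 0 without Knockout 3 or 6, 2 without Knockout 1 or Wild-Type 3, 13 without Wild-Type 1 or 5, 14 without Wild-Type 4 and 28 without Knockout 2. The log2 fold change of Erbb3 turned to 0.00301 with DESeq2 size factors in edgeR, 0.00555 with the milk protein genes left out of the scaling and 0.00261 in DESeq2, and ran from -0.25 to 0.11 with 1 library left out. That of Erbb2 ran from -0.17 to 0.0527 (without Wild-Type 4). The cause was not tested. The difference in the share of the full-length Egfr transcript ran from 4.98 to 10.9 points, with an unadjusted exact permutation p under 0.05 only without Knockout 5 (10.1 points); it was 9.69 points in TPM shares.

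Same-numbered libraries did not deviate together (correlations -0.02, -0.10, 0.19, -0.22 and -0.21), and 1 of 10 libraries correlated best with its own number. Pairing by number was thus not detected. That cannot exclude a shared litter, cage or batch, which the labels do not give. With the replicate block edgeR called 0 genes (1030 at an unadjusted p under 0.05), Egfr was at 0.37 and that share differed by 7.80 points. Low counts limit Erbb4, Nrg1, Tgfa, Areg and Btc, and intervals cover counting and sample spread only. The parts of depth and of the uncounted untranslated regions in these low counts were not tested. The limma fit of the authors' table was chosen after seeing the data.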
